A study of Mus musculus with 3 samples.

Results

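Gpha2-positive epithelial cells are keratin-rich, Krt14-positive cells in which RNA of Gpha2, a mark of the limbal epithelium at the corneal margin, was counted. In the uninjured tissue most of them also carried much of the corneal keratin Krt12, so they are named here by the rule and not as limbal cells. They were taken from 3 single-cell RNA libraries of mouse cornea and limbus by a rule on counted RNA molecules. A cell entered when it had at least 500 detected genes, at most 20% of its unique molecular identifiers (UMIs, each standing for 1 captured RNA molecule) from mitochondrial genes, at least 100 UMIs of Krt5, Krt14 and Krt12 together per 10000, at least 2 UMIs of Gpha2, at least 5 UMIs of Krt14 and a UMI in fewer than 3 of 7 cell-cycle genes (Mki67, Top2a, Cdk1, Ube2c, Birc5, Cenpf, Ccnb1). The rule found 882 cells among 23863 that passed the filters on genes and mitochondrial UMIs, of 25971 deposited barcodes. They were compared with the other Krt14-positive cells of the same library, which passed the same gates with 0 or 1 UMI of Gpha2 and numbered 5114. Gpha2, Krt14, Krt5, Krt12 and the cell-cycle genes chose the cells, so their values are given as a description.

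The 3 libraries each came from 1 wild-type mouse: 1 uninjured, 1 injured with nitrogen mustard (NM, an alkylating agent that injures the ocular surface) and given saline, and 1 injured with NM and given losartan, an angiotensin II receptor blocker. They are called the uninjured, saline and losartan libraries. All tissue was cornea with limbus, freed of lens, retina, iris and trabecular tissue and of most of the conjunctiva, and digested with liberase and trypsin before capture. The time after injury and the dose and route of losartan are not given in the sources used here. With 1 library per group there is no replicate check: mouse, library and treatment cannot be told apart, no test between groups was possible, and every interval below is a 95% interval that covers counting error only.

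The limbus is the rim between cornea and conjunctiva, and its basal layer holds the stem cells that renew the corneal epithelium. Basal cells of this layer carry Krt14 and Krt15, keratins of stratified and of limbal and conjunctival basal cells, while Krt12, the cornea's own keratin, marks the differentiating corneal line. Gpha2 encodes an alpha subunit of the glycoprotein hormone family, which pairs with Gphb5 to form thyrostimulin, a ligand of the thyrotropin receptor. Single-cell work on mouse limbus has used Gpha2, Ifitm3, Krt15 and Cd63 as marks of an outer, slowly dividing compartment and Atf3, Socs3, Mt1 and Mt2 as marks of an inner one.

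The libraries held 177003042, 83155441 and 92753670 UMIs in the order uninjured, saline and losartan, and 12567, 6134 and 5162 of their cells passed the filters. Pairs of libraries shared 7 to 28 barcodes, and no shared barcode was a Gpha2-positive cell in both. The uninjured library gave 759 Gpha2-positive cells, the saline library 56 and the losartan library 67. Depth differed strongly between these cells. Their median was 15323 UMIs in the uninjured, 86057.5 in the saline and 56963 in the losartan cells, against 14965, 3493 and 29549 for the other Krt14-positive cells. Under the fixed minimum of 2 Gpha2 UMIs a deep cell passes more readily than a shallow one.

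The Gpha2-positive cells were 19.1% of the uninjured Krt14-positive non-cycling cells (17.9 to 20.3%, 759 of 3979), 8.99% of those in the saline library (6.86 to 11.5%, 56 of 623) and 4.81% of those in the losartan library (3.74 to 6.06%, 67 of 1394). When each cell was first thinned to 5000 UMIs, leaving out shallower cells, the shares were 10.6% (282 of 2669), 2.35% (10 of 425) and 1.01% (12 of 1183). All minimums, that of Krt14 included, were applied to the thinned counts. No interval was computed for these shares, and those of the injured libraries rest on 10 and 12 cells. Among Krt14-positive non-cycling cells the uninjured share was the highest both ways. The saline share lay above the losartan share both ways, and was 5.68% without its cells over 100000 UMIs. The shares depended on the denominator. Of keratin-positive cells the Gpha2-positive cells were 6.68% (6.23 to 7.16%), 6.48% (4.93 to 8.33%) and 3.83% (2.98 to 4.83%) in the same order. Of all cells passing the filters they were 6.04%, 0.913% and 1.30%. Keratin-positive cells with under 5 Krt14 UMIs numbered 6204, 10 and 38.

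The limbal label was checked against marker genes, which pointed in both directions. Values are in CPM, the UMIs of a gene for each 1000000 UMIs summed over the cells of a class. Krt15 was at 2539 CPM in the uninjured, 5906 in the saline and 4252 in the losartan Gpha2-positive cells, with a UMI in 81.4%, 91.1% and 89.6% of them. Ifitm3, an interferon-inducible transmembrane protein, was at 211, 699 and 1106 CPM. Both lay above the other Krt14-positive cells of each library, at 832, 4385 and 3004 CPM for Krt15 and at 60.2, 435 and 577 CPM for Ifitm3. The epithelial adhesion genes Epcam (260, 369 and 329 CPM) and Cdh1 (257, 340 and 258 CPM) had a UMI in 92.4%, 100% and 98.5% and in 92.8%, 100% and 98.5% of the cells. On thinned cells the shares were 66.1%, 72.7% and 64.2% for Epcam and 71.0%, 80% and 64.2% for Cdh1. Cd63, another outer limbal mark, was higher than in the other cells in the uninjured (49.1 against 8.81 CPM) and losartan (373 against 192 CPM) libraries but lower in the saline library (304 against 378 CPM). Krt12 went against the label in the uninjured library, where its median was 178 UMIs per 10000 in the Gpha2-positive cells, against 21.6 for Krt14. In the saline and losartan Gpha2-positive cells the Krt12 median was lower than that of Krt14, at 0.292 and 67.5 against 117 and 115. The other Krt14-positive cells had Krt12 medians of 234, 0.365 and 109 in the order uninjured, saline and losartan. Of the uninjured cells, 400 with keratin of 150 to 300 per 10000 and 216 with 300 or more had Krt12 at 15830 and 31166 CPM. Krt12 is part of the keratin sum that the rule and these bands use, so its level was partly fixed by the choice of cells.

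Markers of other cell types were checked in the same cells. The pan-leukocyte gene Ptprc was at 0, 2.40 and 0.253 CPM, the keratocyte gene Kera at 17.0, 0.553 and 6.83 CPM, and the summed lymphoid markers at 0, 0.184 and 0 CPM. The summed markers of stroma came to 123 CPM in the uninjured, 4.05 in the saline and 836 in the losartan Gpha2-positive cells, against 130, 13.1 and 44.9 CPM in the other Krt14-positive cells. Stromal genes exceeded 5 UMIs per 10000 in 6 of 759, 0 of 56 and 5 of 67 Gpha2-positive cells. Summed immune markers were at 3.69, 258 and 146 CPM against 3.35, 195 and 112 CPM. Summed mural markers were at 91.6, 62.3 and 63.0 CPM against 94.5, 76.1 and 65.1 CPM, of which Notch3, a receptor that epithelium also carries, made up 81.6, 46.4 and 45.0 CPM in the Gpha2-positive cells. A high doublet score was given to 20.4%, 7.14% and 11.9% of the Gpha2-positive cells and to 12.5%, 3.53% and 4.45% of the others. These cells were kept.

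Gpha2 itself (ENSMUSG00000024784, GRCm38 chr19:6226380-6227768, plus strand, protein coding) stood at 436 CPM (426 to 447) in the uninjured Gpha2-positive cells, 70.0 CPM (63.2 to 77.4) in the saline and 102 CPM (92.4 to 113) in the losartan cells. The other Krt14-positive cells held 12.5, 3.10 and 2.98 CPM. The median Gpha2-positive cell had 3 UMIs in each library, and the richest had 89, 87 and 41. Of the 6154, 380 and 404 UMIs in these cells, the richest 78, 6 and 9 cells held as many as all the rest together. In the uninjured library 2551 Krt14-positive non-cycling cells had 0 UMIs of Gpha2, 669 had 1, 277 had 2, 217 had 3 or 4, 108 had 5 to 9 and 157 had 10 or more. The distribution had no gap at the limit of 2 UMIs.

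The RNA was not limited to these cells. Cells under the keratin floor that carried stromal markers, whose identity was not worked out further, had Gpha2 at 394 CPM (375 to 413) in 455 uninjured cells, 286 CPM (268 to 304) in 821 saline cells and 625 CPM (612 to 638) in 974 losartan cells. They held 11.7%, 45.5% and 84.1% of all Gpha2 UMIs of their library, against 42.2%, 17.2% and 3.83% for the Gpha2-positive epithelial cells. Krt14-positive cells below the keratin floor, without markers of another class, had Gpha2 at 1651, 28.5 and 77.1 CPM. This class held 21.3%, 13.9% and 4.54% of the Gpha2 UMIs. A Gpha2 UMI was seen in 51.6%, 29.4% and 34.5% of these stroma-marker cells (median depth 9951, 2932 and 9692 UMIs). In the immune cells it was 1 of 25, 0.352% and 1.20% (median depth 5266, 4234 and 2854 UMIs). Whether the immune cells show the level of stray RNA was not tested. On cells thinned to 5000 UMIs a Gpha2 UMI was found in 49.7%, 11.9% and 25.3% of stroma-marker cells. It was found in 70.0%, 38.2% and 35.8% of the Gpha2-positive epithelial cells, and in 8.13%, 1.92% and 0.906% of the other Krt14-positive cells. Among thinned immune cells the values were 7.14% (of 14 cells), 0.161% and 1.13%. The Gpha2-positive and other Krt14-positive classes were chosen on their full Gpha2 counts, so the gap between them follows from the rule. The stroma-marker and immune cells were not chosen on Gpha2. In the saline and losartan libraries most Gpha2 RNA lay outside the keratin-positive epithelium or in its cycling cells. Cycling Krt14-positive cells had 50.9, 22.4 and 41.7 CPM, and 232 of 1174, 58 of 231 and 53 of 319 of them had at least 2 UMIs. Gphb5, the partner subunit, and the other genes of the hormone family list were below the level needed for comparison, so that 1 of its 9 genes, Gpha2, was measured in the uninjured comparison.

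**Figure D1:**
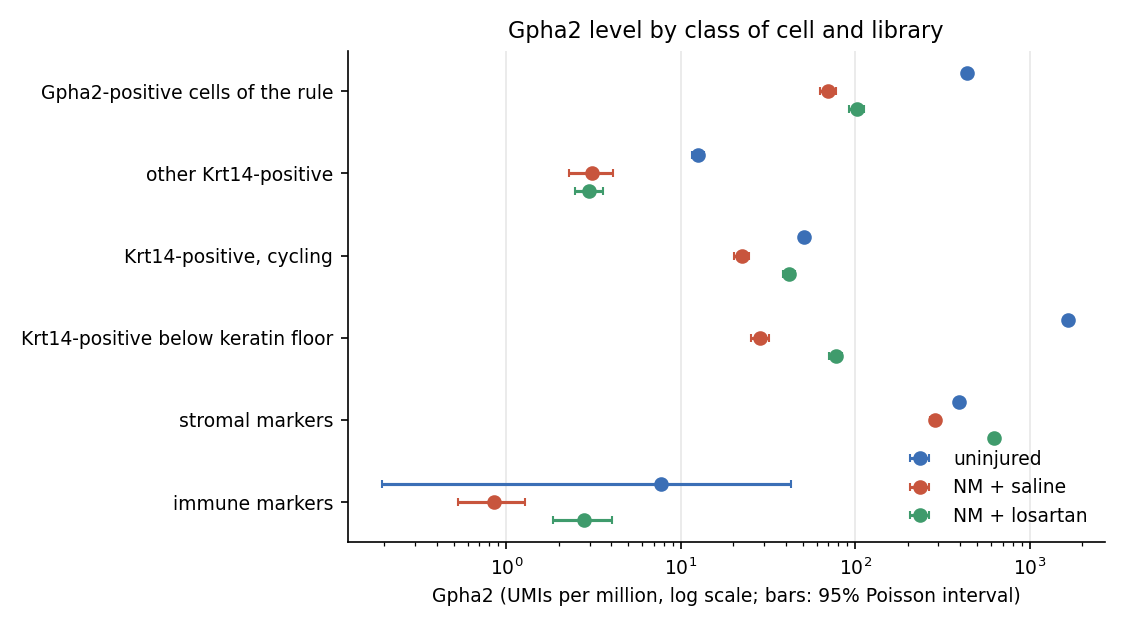
Gpha2 level (CPM, log axis) in 6 cell classes of each of the 3 libraries, with 95% Poisson bars for counting error. Gpha2-positive epithelial cells reach 436 CPM in the uninjured library but 70.0 and 102 CPM in the saline and losartan libraries, where cells with stromal markers reach 286 and 625 CPM. The highest uninjured class is the Krt14-positive cells below the keratin floor, at 1651 CPM.

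In the uninjured library the Gpha2-positive cells carried more Krt15, Ifitm3, Cd63 and Apoe than the other Krt14-positive cells, while no corneal differentiation gene was called either way. A gene was compared when it reached 20 CPM in a class and 20 UMIs over both, differences are log2 ratios of CPM with 5 added to each side, and a gene was called at 2-fold. Of 6043 genes 56 were called (0.927%), 53 higher (0.877%) and 3 lower (0.0496%), around a median of 0.02 over all genes, of which 56.2% were above 0. The 53 include Gpha2 itself. Because Gpha2 chose the cells, these differences describe what went with it in the same cells. With the high doublet scores left out, 60 genes were called higher and 6 lower, and 55 of the 56 calls were shared.

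Among the keratins Krt15, Krt17 and Krt4 were called higher. Krt15 was 3.05-fold higher (3.01 to 3.10), at 2539 against 832 CPM, and 35 of the 759 cells held as many of its UMIs as all the rest. Krt17, a keratin of basal and appendage cells, was 6.24-fold higher (5.70 to 6.83), at 89.9 against 14.4 CPM, with a UMI in 24.5% against 6.30% of cells, and its UMIs were concentrated in the same way in 27 cells. Krt4, a keratin of mucosal and conjunctival epithelium, was at 69.4 against 14.1 CPM, but 7 of 759 cells held as many of its UMIs as all the rest. Another conjunctival keratin, Krt13, was lower, at 224 against 324 CPM. Of 5 conjunctival genes measured 1, Krt4, was called, and the list's median was -0.22 against 0.02 for all genes.

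Of the 5 outer limbal genes all were above 0 and 4 were called higher, with a median of 1.73. Gpha2 and Krt14 are among the 5, and the 3 that the rule did not read were Cd63, Ifitm3 and Krt15. Cd63, a tetraspanin of endosomes, was 5.58-fold higher (4.96 to 6.29), at 49.1 against 8.81 CPM, and was detected in 31.4% against 7.02% of cells. Ifitm3 was 3.51-fold higher (3.33 to 3.69), and its relatives Ifitm1 (451 against 150 CPM) and Ifitm2 (304 against 200 CPM) lay on the same side. The 4 inner limbal genes were all below 0 and none was called, with a median of -0.24. Mt1, a metallothionein, was at 1358 against 1657 CPM and Atf3, a stress-induced transcription factor, at 1506 against 1803 CPM. In a wider list of 20 limbal and progenitor genes 13 were measured and 2 called, Krt15 and Krt17, with a median of 0.22. Trp63, the master factor of stratified epithelia, was at 228 against 194 CPM. Abcg2, a transporter used as a limbal stem cell mark, was on the lower side, at 36.3 against 58.5 CPM.

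Several of the largest differences lay outside the keratins. Apoe, the lipid carrier (GRCm38 chr7:19696109-19699188, minus strand), was 6.90-fold higher (6.60 to 7.22), at 376 against 54.5 CPM, with a UMI in 77.6% against 40.4% of cells. Ccdc3, a secreted coiled-coil protein, was scarce in the other cells, at 32.6 against 0.974 CPM and in 19.8% against 0.776% of cells: 33.4 times the level (25 to 45.4). Kcnq5, a voltage-gated potassium channel, was 14.4-fold higher (12.2 to 17.1), at 46.7 against 3.24 CPM, and 24 cells held as many of its UMIs as the rest. Tmem176b (162 against 36.8 CPM) and its neighbour Tmem176a (109 against 27.0 CPM), a pair of related membrane proteins, were both higher. So were Igfbp7, an insulin-like growth factor binding protein (55.1 against 7.72 CPM), Lgi2, a secreted leucine-rich repeat protein (49.3 against 8.02 CPM), Ptn, the heparin-binding growth factor pleiotrophin (40.4 against 6.84 CPM), and Ly6a, the Sca-1 antigen of many progenitor cells (58.6 against 12.5 CPM).

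Transcription factors and matrix genes added fewer. Of 13 corneal transcription factors Barx2, a homeobox factor, was called, at 22.3 against 2.29 CPM, and Pax6, the eye master regulator, was at 352 against 314 CPM. Bnc2, a zinc finger protein of epithelial progenitors, stood at 26.8 against 1.69 CPM. Of 18 hemidesmosome and basement membrane genes Col4a6, a basement membrane collagen chain, was called, at 27.0 against 4.29 CPM, while Col17a1, the hemidesmosomal collagen, was at 1358 against 1620 CPM. The 12 integrins and matrix receptors had 0 called, and Itga6, the laminin receptor of basal cells, was at 880 against 936 CPM.

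The corneal differentiation list had 2 of 18 genes above 0 and 0 called, with a median of -0.27. Krt12 was at 20587 against 28037 CPM, Slurp1, a secreted Ly6-family protein of the ocular surface, at 2821 against 4137 CPM, Aqp5, a water channel, at 2463 against 3621 CPM, and Aldh3a1, an aldehyde dehydrogenase abundant enough to serve as a corneal crystallin, at 11775 against 13190 CPM. The desmosome and junction list likewise had 2 of 21 above 0 and a median of -0.18. Outside these lists the lowest genes included Phactr1, an actin regulator (7.45 against 20.6 CPM), Adm, the peptide adrenomedullin (134 against 267 CPM), Fscn1, the actin-bundling fascin (43.2 against 82.3 CPM), Rab31, a vesicle GTPase (16.4 against 36.6 CPM), Il1a, an alarm cytokine (11.6 against 27.2 CPM), and Gkn1, a secreted gastrokine (15.7 against 31.3 CPM). Of these Phactr1 was called, with Sprr1a, a cornified envelope protein, at 17.0 against 51.2 CPM.

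Growth and signalling lists differed little. Of 20 replication and growth genes 19 were above 0 with 0 called and a median of 0.24, and Ccnd2, a G1 cyclin, was at 468 against 269 CPM. Of 15 p53 and DNA damage genes 0 were called, with a median of -0.12, and the p53 targets Mdm2 (80.6 against 139 CPM) and Cdkn1a (354 against 541 CPM) had the largest differences. Wnt pathway genes were above 0 in 11 of 15 with a median of 0.17. They included Wnt6 (20.4 against 12.8 CPM) and Wnt10a (90.3 against 63.0 CPM), a pair of ligands, Lgr4, an R-spondin receptor (52.4 against 37.3 CPM), and Sfrp1, a secreted Wnt antagonist (345 against 268 CPM). Id1, a target of bone morphogenetic protein signals, was at 531 against 275 CPM. Rdh10, which makes retinaldehyde, was called, at 32.9 against 11.4 CPM. Quiescence genes had 0 of 15 called and a median of -0.10, with Txnip, a glucose-responsive brake on growth, at 204 against 117 CPM.

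**Figure D2:**
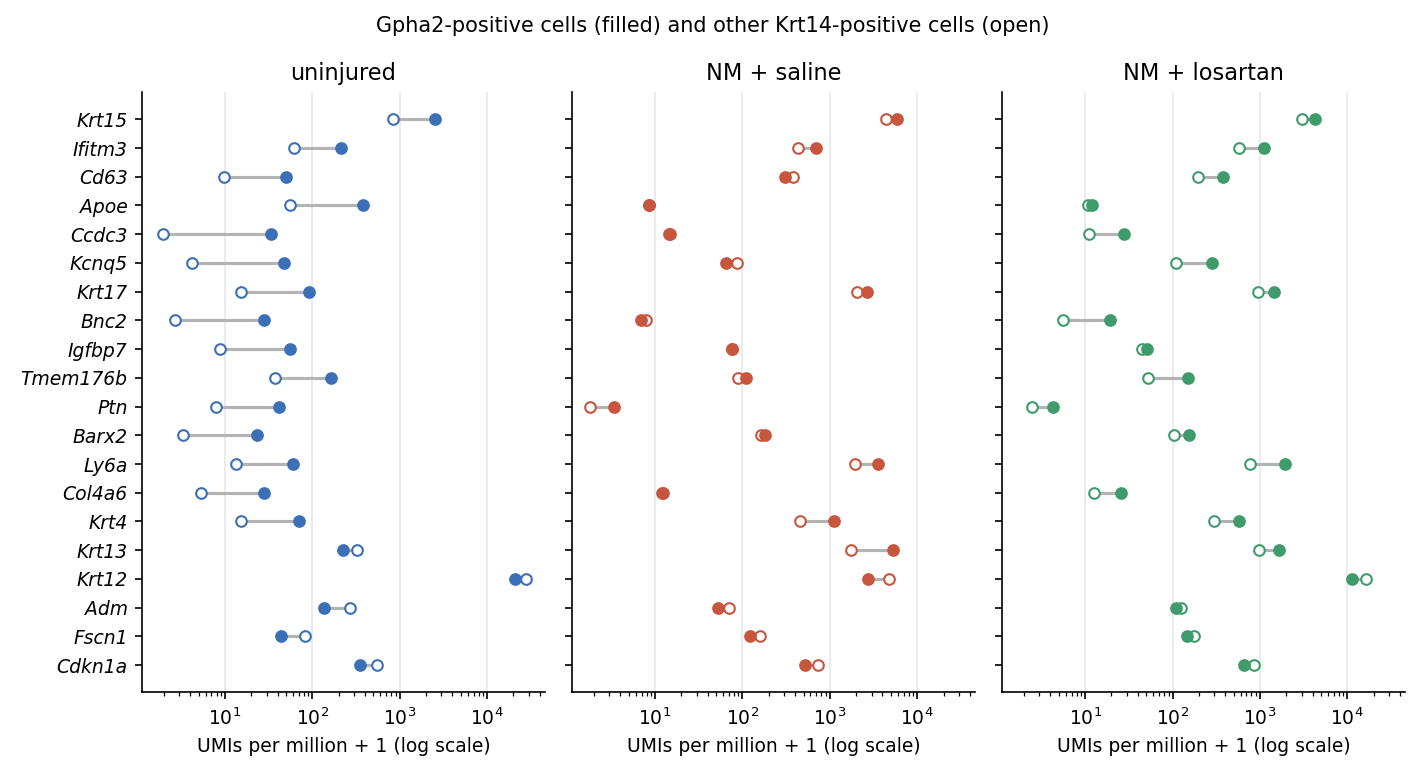
Levels of 20 genes (CPM with 1 added, log axis) in Gpha2-positive cells (filled) and other Krt14-positive cells (open) of the 3 libraries. In the uninjured library Apoe stands at 376 against 54.5 CPM and Krt15 at 2539 against 832 CPM, while in the saline library Apoe stands at 7.56 against 7.59 CPM and Krt15 at 5906 against 4385 CPM.

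Within the uninjured Krt14-positive cells Krt15, Apoe and Ifitm3 followed the amount of Gpha2 step by step. Cells were thinned to 5000 UMIs and grouped by their full Gpha2 count of 0, 1, 2, 3 or 4, 5 to 9, and 10 or more, which kept 2199, 653, 275, 212, 106 and 156 cells. Median depth before thinning was 14733, 15971, 15777, 16075, 15575 and 13282 UMIs in these groups. Krt15 stood at 522, 791, 1268, 1550, 3466 and 4632 CPM. Apoe stood at 59.1, 94.0, 154, 293, 542 and 1415 CPM, and Ifitm3 at 63.9, 94.3, 103, 165, 319 and 618 CPM. In each of these 3 genes every group lay above the one before it.

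Cd63 was flat over the first groups, at 7.9, 11.9 and 8.7 CPM, and then stood at 43.4, 66.0 and 204 CPM. Ccdc3 went from 0.8 CPM at 0 UMIs of Gpha2 to 151 CPM at 10 or more, and Krt17 from 11.7 to 240 CPM. The corneal genes ran the other way: Krt12 stood at 26232, 24150, 22506, 19563, 15523 and 8040 CPM, and Slurp1 went from 3938 to 692 CPM. Adm went from 243 to 60.3 CPM and Fscn1 from 91.9 to 9.0 CPM. Ccnd2 went from 298 to 856 CPM and Txnip from 143 to 471 CPM across the same groups, whereas Trp63 (224 and 274 CPM), Pax6 (346 and 419 CPM) and Itga6 (993 and 1079 CPM) differed little between the end groups. Gpha2 itself defines the axis. The cells with 2 UMIs of Gpha2, the lowest count that admits a cell, lay between those with 1 and those with 3 or 4 for Krt15, Apoe, Ifitm3, Krt12 and Slurp1.

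**Figure D3:**
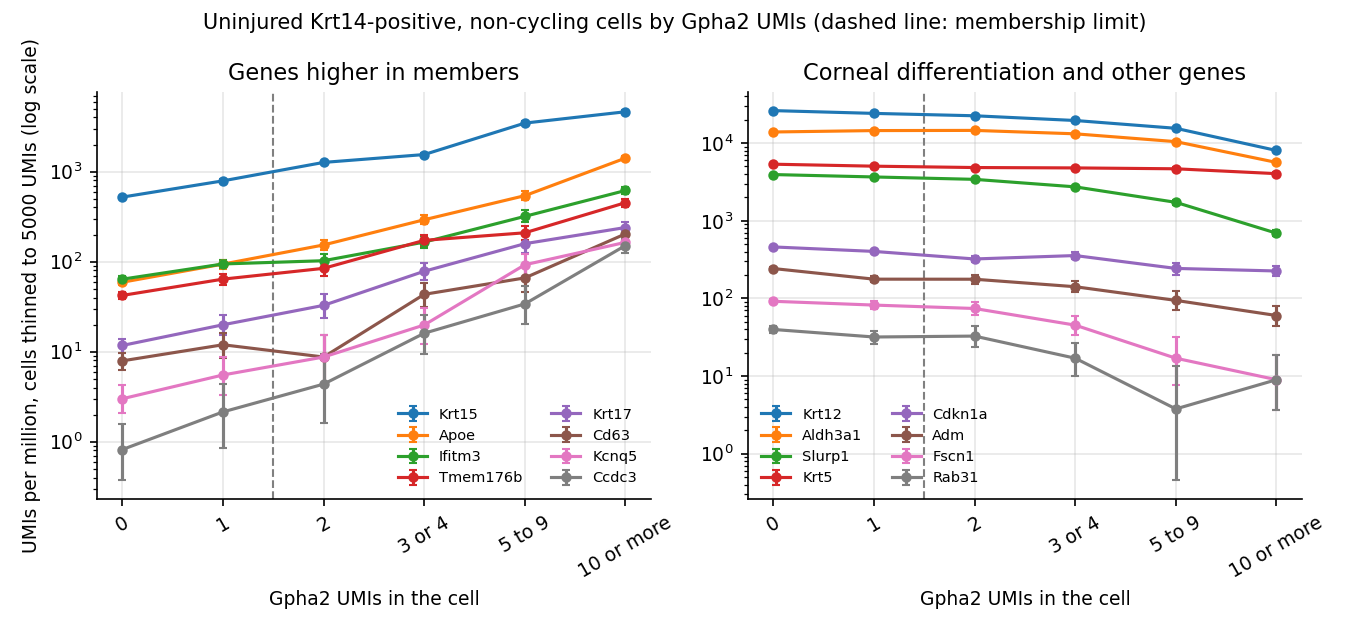
Levels of 16 genes (CPM after thinning to 5000 UMIs, log axis) in uninjured Krt14-positive cells grouped by their Gpha2 UMIs, with a dashed line at the limit of the rule. Apoe climbs from 59.1 to 1415 CPM and Krt12 declines from 26232 to 8040 CPM from the cells with 0 to those with 10 or more.

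The keratin floor, set at 100 per 10000, left out the Krt14-positive cells that were richest in Gpha2. In the uninjured library 112 of 170 Krt14-positive cells between 50 and 100 keratin UMIs per 10000 (65.9%, counting cells with at most 5 stromal UMIs per 10000) had at least 2 Gpha2 UMIs, against 137 of 228 (60.1%) between 100 and 150, 400 of 1869 (21.4%) between 150 and 300, and 216 of 1847 (11.7%) at 300 or more. Among the cells with at least 2, Gpha2 stood at 2508, 1707, 366 and 140 CPM in these 4 bands. Krt15 stood at 5234, 6014, 2486 and 1589 CPM. Apoe stood at 1997, 1557, 331 and 78.4 CPM and Cd63 at 297, 196, 40.6 and 6.4 CPM. Krt12, which is part of the keratin sum, stood at 1464, 3349, 15830 and 31166 CPM. The cells just under the floor thus resembled those just above it in the levels of these genes, with less Krt12. With the floor set to 20 and at most 5 stromal UMIs per 10000, the share of Gpha2-positive cells was 21.1% and 88 genes were called, including all 56.

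Levels also differed across the other limits. Uninjured cells with 3 or 4 Krt14 UMIs (55 cells, just outside) had Krt15 at 2676 and Apoe at 87.5 CPM, and those with 5 or 6 (65 cells, just inside) had 1760 and 110 CPM. Cells with a UMI in 2 cell-cycle genes (64 cells, just inside) had Apoe at 249 and Ifitm3 at 166 CPM, and those with 3 (49 cells, just outside) had 190 and 111 CPM.

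**Figure D4:**
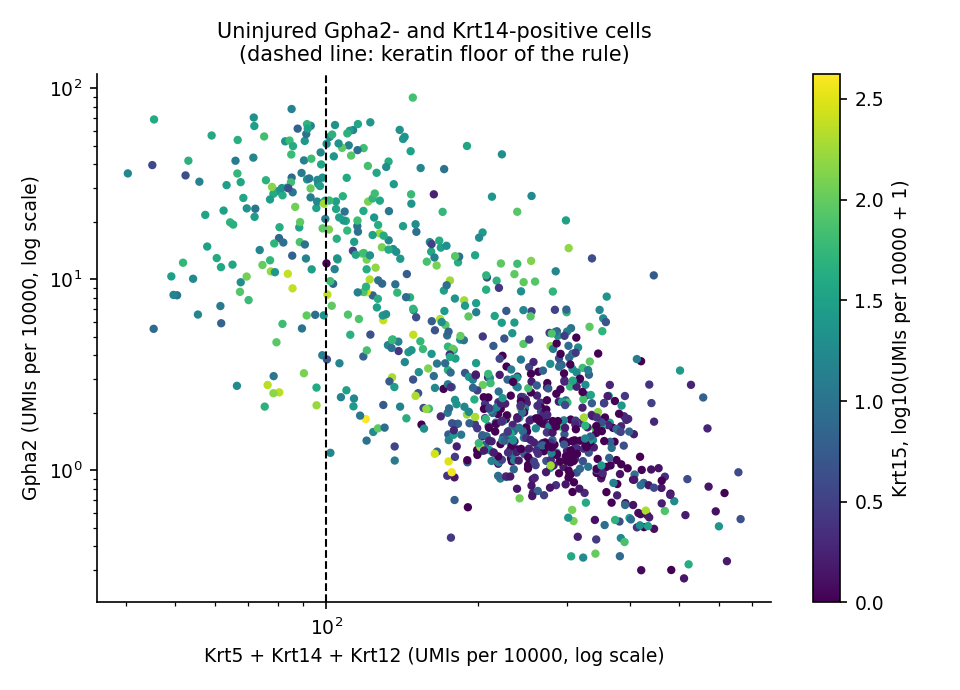
Each point is an uninjured Krt14-positive cell with at least 2 Gpha2 UMIs, placed by its Krt5, Krt14 and Krt12 UMIs per 10000 and its Gpha2 UMIs per 10000 and coloured by Krt15, with a dashed line at the floor of 100. Gpha2 is densest at low keratin, with a level of 2508 CPM in the 112 cells from 50 to 100 and 140 CPM in the 216 cells at 300 or more.

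Under the rule as set, few of these differences were of like size in the injured libraries. The 52 genes called higher in uninjured Gpha2-positive cells, Gpha2 left out, were followed in the injured libraries, whose cells did not choose this set. In the saline library 34 of the 52 were measured, 23 of them above 0, and 1, Krt4, was called (background 0.72% called higher). Their median was 0.17 against -0.11 for all genes, of which 30.2% were above 0. In the losartan library 34 were measured, 33 above 0, and 7 were called (background 1.33%): Ccdc3, Kcnq5, Lgals7, Ly6a, Rnase4, Tmem176a and Tmem176b. Their median was 0.61 against -0.05 for all genes, of which 44.1% were above 0. With the cells rich in stromal RNA left out, 7 of 35 were called and the median was 0.63. With a minimum of 5 Gpha2 UMIs, 16 of 36 were called higher in the losartan library (background 3.41%), with a median of 0.86. On thinned cells 15 of 38 were (background 3.15%), with a median of 0.76. In the saline library 2 of 34 were called higher and 1 lower with the minimum of 5, and 2 of 33 higher on thinned cells.

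Apoe, 6.90-fold higher in the uninjured Gpha2-positive cells, was level with the other cells after injury. It stood at 376 CPM in uninjured Gpha2-positive cells and at 7.56 and 10.9 CPM in those of the saline and losartan libraries, and at 54.5, 7.59 and 9.70 CPM in the other Krt14-positive cells. Cd63 had the opposite course, at 49.1, 304 and 373 CPM in the Gpha2-positive cells and 8.81, 378 and 192 CPM in the others, so that the ratio between the classes was 5.58, 0.804 and 1.94. Kcnq5 stood at 46.7, 64.5 and 283 CPM against 3.24, 85.1 and 110 CPM. Lgi2 had 0 UMIs in the Gpha2-positive cells of both injured libraries. Whether these within-library differences differ between libraries was not tested.

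In the saline library 51 of 5691 genes were called (0.896%), 41 higher in the Gpha2-positive cells (0.72%) and 10 lower (0.176%). Krt13 and Krt4, keratins of mucosal and conjunctival epithelium, were at 5250 against 1763 and 1118 against 460 CPM. Krt8, a simple-epithelium keratin, was at 239 against 93.9 CPM. The secreted defence proteins Ltf, lactoferrin, at 972 against 409 CPM, and Wfdc2, at 1523 against 632 CPM, were also higher. Of 12 conjunctival genes measured 5 were called higher, with a median of 0.93 against -0.11 for all genes; most of the conjunctiva had been cut away, and the part of remaining conjunctival cells in this result was not tested.

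The highest ratios belonged to Alox12e, an epidermal lipoxygenase (71.0 against 7.84 CPM, 1 cell holding as many UMIs as the rest), Ifi47, an interferon-induced GTPase (66.7 against 10.8 CPM), and Gabrp, a GABA receptor subunit of secretory epithelia (101 against 19.9 CPM). The 17 interferon genes measured had 13 above 0 and 0 called, with a median of 0.31. Slpi, a secreted protease inhibitor, was lower at 167 against 576 CPM, with 2 cells holding as many UMIs as the rest, and Mt1 at 203 against 414 CPM. The depth of the compared cells differed most here. With the other cells weighted to the depth of the Gpha2-positive cells 54 genes were called higher and 18 lower, sharing 44 of the 51, while on thinned cells 101 were higher and 257 lower, sharing 35. Without cells over 100000 UMIs 61 were higher and 19 lower, sharing 25.

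In the losartan library 92 of 5645 genes were called (1.63%), 75 higher (1.33%) and 17 lower (0.301%). The top of this list was stromal: Col1a2 at 171 against 6.79 CPM and Col1a1 at 183 against 8.32 CPM, the chains of type I collagen, and Dcn, the matrix proteoglycan decorin, at 382 against 22.5 CPM. The UMIs of Dcn and of Col1a1 in 2 of the 67 cells equalled those in all the rest. With the cells rich in stromal RNA left out, 49 genes were called higher and 24 lower, and 59 of the 92 calls were shared. Igfbp2, an insulin-like growth factor binding protein, stood at 212 against 37.8 CPM, a log2 difference of 2.34 that became 1.32 without those cells, and Igfbp4 went from 2.64 to 0.29.

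Some of the genes called in the uninjured library were higher on this library's Gpha2-positive cells as well. Ifitm3 was at 1106 against 577 CPM, Cd63 at 373 against 192 CPM, Tmem176b at 149 against 50.8 CPM, Ly6a at 1934 against 779 CPM and Ccdc3 at 27.1 against 10.1 CPM. Krt15 was at 4252 against 3004 CPM, a log2 difference of 0.50 that became 0.04 with the other cells weighted to depth and -0.58 with at least 5 Gpha2 UMIs required. Cxcl1, a chemokine that draws neutrophils, was at 283 against 99.2 CPM, and 4 of 16 chemokine and cytokine genes measured were called higher. Krt12 was at 11385 against 16300 CPM, on the lower side as in the other libraries.

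Between libraries the Gpha2-positive cells differed far more than from their neighbours. The 3 comparisons between libraries share libraries, so their values stand side by side and are not independent. In the saline against the uninjured library 2049 of 6594 genes were called (31.1%), 820 higher (12.4%) and 1229 lower (18.6%), around a median of -0.27. With median-of-ratios scaling, which centres the typical gene, the split was 1057 higher and 853 lower. Without cells over 100000 UMIs, which were 24 of the 56 saline cells, 857 genes were higher and 759 lower. In the losartan against the uninjured library 1508 of 6488 were called (23.2%), 581 higher (8.95%) and 927 lower (14.3%), around a median of -0.23, and 726 and 655 after that scaling. Between the losartan and saline libraries 299 of 5735 were called (5.21%), 107 higher (1.87%) and 192 lower (3.35%). For the other Krt14-positive cells 1592 genes were called in the first comparison (24.4%), 785 higher (12%) and 807 lower (12.4%). In the next 1384 were called (21.8%), 575 higher (9.07%) and 809 lower (12.8%), and in the last 135 (2.35%), 36 higher (0.627%) and 99 lower (1.72%). Fewer cells of a kind and less RNA per cell cannot be told apart in these sums.

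Corneal identity genes were lower in both injured libraries. Of 18 corneal differentiation genes 12 were called lower and 3 higher in the saline cells (median -2.89), and 9 lower and 2 higher in the losartan cells (median -1.58). Among all genes the shares were 18.6% lower and 12.4% higher in the saline cells, and 14.3% and 8.95% in the losartan cells. Krt12 stood at 20587, 2751 and 11385 CPM in the Gpha2-positive cells and at 28037, 4690 and 16300 CPM in the others. Lypd2, a Ly6-family surface protein, was at 3763, 0.737 and 22.5 CPM, and Adh7, a retinol-oxidising alcohol dehydrogenase, at 1514, 2.76 and 32.9 CPM, with 1 of 67 losartan cells holding as many Adh7 UMIs as the rest. Slurp1 was at 2821, 0.369 and 190 CPM, with 1 losartan cell holding as many of its UMIs as the rest. Against the saline cells the losartan cells had 8 of 16 of these genes called higher and 1 lower, with a median of 1.06. The other Krt14-positive cells had medians of -2.73, -1.42 and 1.20 in the 3 comparisons.

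Limbal and stem cell genes went different ways. Krt15, Ifitm3 and Cd63 were on the higher side in both injured libraries, except that with at least 5 Gpha2 UMIs required Krt15 was lower in the losartan than in the uninjured cells (log2 difference -1.14 in place of 0.74). The other Krt14-positive cells took the same side, with Krt15 at 832, 4385 and 3004 CPM and Ifitm3 at 60.2, 435 and 577 CPM. Cd63 was on the higher side in them as well. Also higher in the Gpha2-positive cells were Krt17, at 89.9, 2637 and 1462 CPM, and Krt19, a keratin of limbal and conjunctival cells, at 16.2, 2683 and 950 CPM. Trp63 was lower, at 228, 76.5 and 106 CPM, as was Pax6, at 352, 87.2 and 91.0 CPM. The 4 inner limbal genes were all called lower in the saline cells (median -2.52) and 3 of 4 in the losartan cells (median -1.85). Wnt genes were called lower in 11 of 17 and higher in 1 in the saline cells (median -1.23), and lower in 7 of 15 in the losartan cells (median -0.97). Sfrp1 was at 345, 35.4 and 64.2 CPM. The medians of the others for the Wnt list were -0.66 and -0.55. Hemidesmosome and basement membrane genes had 9 and 8 of 18 called lower and 0 higher, and Col17a1 was at 1358, 532 and 645 CPM. Beside these list counts, 18.6% of all genes were called lower in the saline and 14.3% in the losartan cells, around medians of -0.27 and -0.23.

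Wound keratins and barrier proteins were the counterpart. Of 19 measured 17 were called higher in the saline cells and 1 lower (median 3.37), and of 15 measured 12 were higher in the losartan cells (median 3.43). The share of all genes called higher was 12.4% in the saline and 8.95% in the losartan cells. Sprr1a, a small proline-rich protein of the cornified envelope, stood at 17.0, 7092 and 3733 CPM, and Sprr2f at 0.142, 4471 and 1625 CPM, although 1 losartan cell held as many Sprr2f UMIs as the other 66. Ecm1, a secreted matrix protein, stood at 28.0, 4741 and 1711 CPM. All 12 conjunctival genes measured were called higher in both injured libraries, with medians of 3.97 and 3.04. The other Krt14-positive cells had nearly the same medians, 3.91 and 3.06.

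Chemokines were high after injury. Ppbp, a platelet and epithelial CXC chemokine that draws neutrophils, had no UMI in the 759 uninjured cells and stood at 17440 CPM in the saline and 4522 in the losartan cells. Of 17 chemokine and cytokine genes 14 were called higher and 1 lower in the saline cells (median 2.32), and of 15 measured 12 and 1 in the losartan cells (median 2.63). Over all genes 12.4% were called higher in the saline and 8.95% in the losartan cells. Areg, a ligand of the epidermal growth factor receptor, was at 15.3, 529 and 255 CPM, and Igfbp3, an insulin-like growth factor binding protein, at 0.993, 749 and 252 CPM. S100a9, a neutrophil protein that injured epithelium also makes, was at 2.06, 177 and 102 CPM, and Lyz2, a myeloid lysozyme, at 0, 28.4 and 3.54 CPM. In the saline cells 2 of 56 held as many S100a9 UMIs as the rest, and 1 of 56 as many Lyz2 UMIs. The other Krt14-positive cells had S100a9 at 2.06, 123 and 57.9 CPM and Lyz2 at 0.075, 7.65 and 6.47 CPM. The part of myeloid RNA in these values was not tested.

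Interferon-linked genes separated the 2 injured libraries. Of 15 interferon and Ifitm genes 8 were called higher in the saline cells and 0 lower (median 1.26), of 12 in the losartan cells 4 were higher and 4 lower (median 0.47), and between losartan and saline 9 of 16 were lower and 0 higher (median -1.27). In the same order all genes were called higher in 12.4%, 8.95% and 1.87% and lower in 18.6%, 14.3% and 3.35%. Irf1, a transcription factor of interferon signals, stood at 168, 177 and 48.8 CPM, and Isg15, a ubiquitin-like effector, at 22.5, 113 and 44.5 CPM. Ifi47 stood at 2.20, 66.7 and 1.01 CPM, and 3 of 56 saline cells held as many of its UMIs as the rest. Ifitm3 was the exception, highest in the losartan cells at 1106 CPM. In the class I antigen presentation list 8 of 11 genes were called higher in the saline and 5 in the losartan cells, and H2-D1 was at 117, 823 and 407 CPM. For the other Krt14-positive cells the interferon medians were 0.57, 0.12 and -0.81. Whether the 2 classes differ in this was not tested.

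Other genes that set the losartan apart from the saline cells were Tspan8, a tetraspanin of secretory epithelia (7.08 against 112 CPM), Ndufa4l2, a hypoxia-induced mitochondrial protein (13.1 against 150 CPM), Spp1, osteopontin (4.55 against 59.3 CPM, with 1 of 56 saline cells holding as many UMIs as the rest), Gabrp (10.4 against 101 CPM) and Alox12e (6.32 against 71.0 CPM). Among the genes kept for naming, which had a UMI in at least 10% of the losartan cells, the 8 highest were Slurp1 and 7 others. These were the stromal or perivascular genes Dcn, Col1a1, Col1a2, Lum, Mgp, A2m and Apod. Dcn was at 382 against 2.03 CPM. Stromal genes exceeded 5 UMIs per 10000 in 5 of 67 losartan and 0 of 56 saline cells. With such cells left out 82 genes were called higher and 191 lower, in place of 107 and 192. With all cells kept, conjunctival genes were called lower in 8 of 12, against 3.35% of all genes, with a median of -1.28. Glycolysis and hypoxia genes had a median of -0.50 with 1 of 20 called higher and 1 lower. The p53 and DNA damage list, whose targets respond to alkylating agents, had 8 of 20 called higher and 3 lower in the saline and 10 of 20 higher and 3 lower in the losartan cells against uninjured cells, with 12.4% of all genes higher and 18.6% lower in the first and 8.95% and 14.3% in the other. In the other Krt14-positive cells the counts were 8 higher and 3 lower of 21, and 8 and 3 of 20. In the Gpha2-positive cells 0 of 19 were called between the injured libraries. Mdm2 stood at 80.6, 234 and 260 CPM, and Cdkn1a, the p21 cell-cycle inhibitor, at 354, 524 and 659 CPM.

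**Figure D5:**
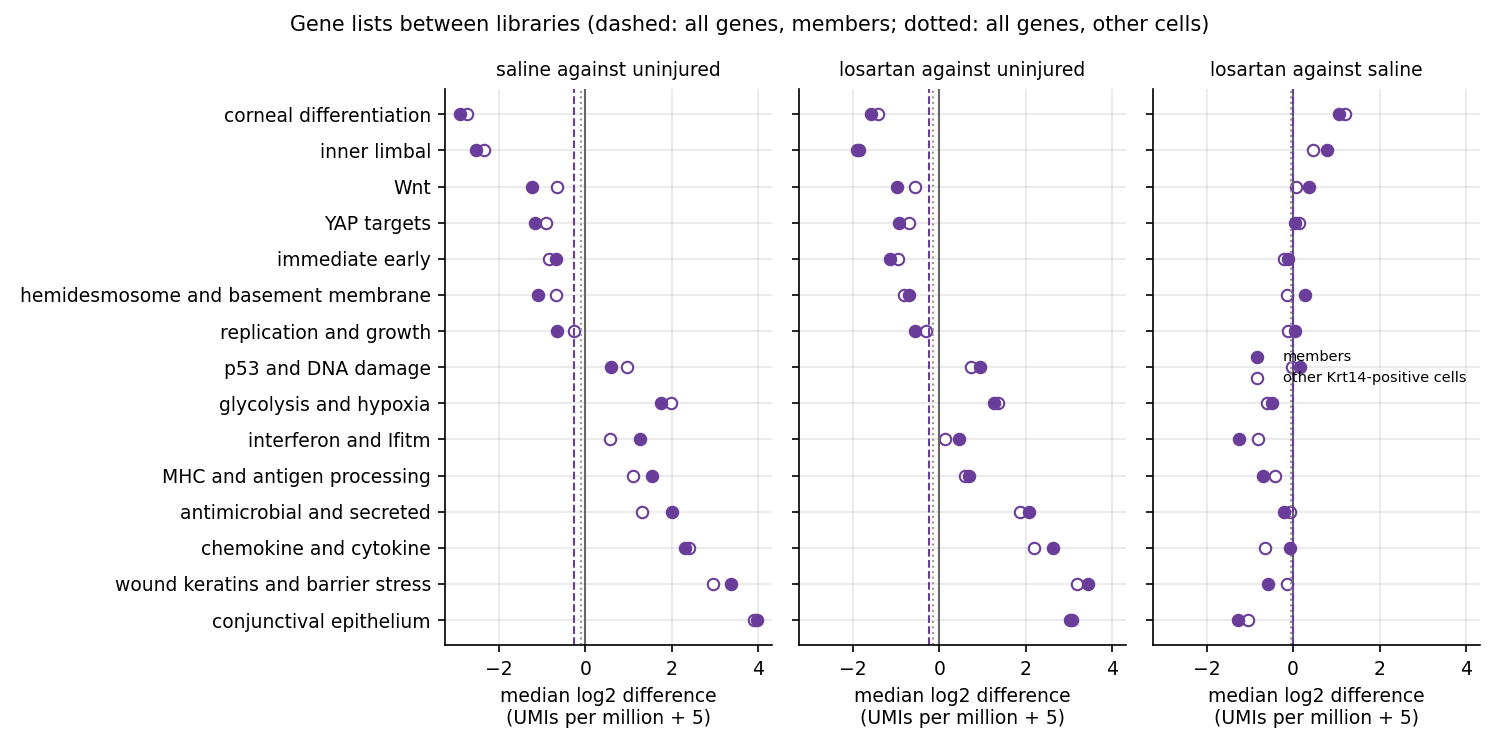
Median log2 difference of 15 gene lists for 3 pairs of libraries, in Gpha2-positive cells (filled) and other Krt14-positive cells (open), with dashed and dotted lines at the medians of all genes. The corneal differentiation list lies at -2.89 and -1.58 against the uninjured library and the conjunctival list at 3.97 and 3.04, and the other Krt14-positive cells lie close by.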

How the data were processed

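The authors deposited raw UMI counts per gene and cell from 10x libraries. Per the file headers, Cell Ranger 8.0.0 made them, and per the submitters' processing notes the build was GRCm38; no deposited barcode had under 500 UMIs. Counts were summed per class and scaled to CPM. Log2 differences used a pseudocount of 5 CPM, a minimum of 20 CPM and 20 UMIs, and a 2-fold limit. Intervals are exact (Poisson, binomial and Clopper-Pearson). Named genes were the given markers, the 15 highest and 10 lowest in the uninjured comparison, 8 each way per library pair and up to 4 per list. They were taken among genes whose interval leaves out 1. For the uninjured comparison and the library pairs they also needed a UMI in at least 10% of the cells of the higher class. Genes needed to place a list were added, and Psca, Rnase4 and the markers of other cell types are named as list or count members. Members, lists and rule were chosen with earlier results of these data known. Classes below the keratin floor took the marker list with at least 10 UMIs per 10000, a limit chosen after seeing the data. Scrublet scores (scanpy 1.11.5) marked possible doublets, which were kept. Coordinates are from GENCODE M21. Calculations were tested on simulated counts and used python 3.11.15, numpy 2.4.6, scipy 1.17.1 and pandas 2.3.3. Alternatives were other Gpha2 minima, depth weighting, thinning, scaling and pseudocount; 3 were added after seeing the data (stromal RNA, keratin floor of 20, cells over 100000 UMIs). Some measured genes are not reported here.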

Additional observations from a re-analysis of the deposited data

Results flagged for a closer look

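Lce3a, a late cornified envelope gene, took opposite sides in the 2 injured libraries. Against the other Krt14-positive cells its log2 difference was 0.46 in the uninjured, 2.54 in the saline and -2.19 in the losartan Gpha2-positive cells. It stood at 2.91 against 0.731, 77.0 against 9.11 and 6.83 against 49.1 CPM. In the saline library 1 of 56 cells held as many Lce3a UMIs as all the rest. The difference between the libraries was not tested.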

How the results depend on the processing

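No paired analysis was possible because each group has 1 library. The share of Gpha2-positive cells was 35.9%, 16.9% and 13.3% (uninjured, saline, losartan) with a minimum of 1 Gpha2 UMI, 6.66%, 3.21% and 1.58% with 5, and 10.6%, 2.35% and 1.01% on thinned cells. It was 17.6% without high doublet scores and 21.1% with a keratin floor of 20 in the uninjured library, and 5.68% without cells over 100000 UMIs in the saline library. The 56 genes called within the uninjured library became 193 with a minimum of 5 Gpha2 UMIs and 88 with the lower floor. The 51 of the saline library became 358 on thinned cells, 121 with the minimum of 5 and 80 without cells over 100000 UMIs, and with the lower floor 21 were higher and 18 lower. The 92 of the losartan library became 350 on thinned cells, 168 with no minimum level and 325 with the minimum of 5. The 299 called between losartan and saline became 461, 455 and 1004 in the same order. Without cells over 100000 UMIs, 857 genes were higher and 759 lower in saline against uninjured cells. Signs turned under a minimum of 5 Gpha2 UMIs for Lyz2 (saline against other cells, -1.19; losartan against saline, 0.046), Ltf (-1.08), Psca (-0.49), Sprr2f (-2.07) and Wfdc18 (-0.58) in losartan cells against others, and Ifitm1 (losartan against uninjured, -0.14). They turned without cells over 100000 UMIs for Lce3a (saline against others, -0.12; losartan against saline, 1.35) and Sprr2f (losartan against others, -0.85), and with the lower floor for Ccl2 (losartan against others, -0.27). The cause was not tested. Over all settings 5929 log2 values of named genes kept their sign and their side of the 2-fold limit, 428 crossed the limit or, uncalled, changed sign, and 11 called values turned. Of the 5929, 638 came from the setting with no minimum level, which cannot change a log2 value. The stromal, floor and 100000 UMI settings were chosen after seeing the data.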
